A study of Mus musculus with 6 samples.

Results

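Described here are 10 genes that the study listed as lower in intestinal epithelial cells of mice given Akkermansia muciniphila (Akk) than in mice given PBS. They are the Ly6 surface proteins Ly6a and Ly6e and the genes Bst2, Ifi27l2a, Ifit2, Irgm1, Plscr1, Slfn9, Tor3a and Tspo, most of them inducible by interferon. They were taken by name from a deposited table of 1386 genes, 1040 of them marked lower and 346 marked higher in Akk. The authors had selected the table on the contrast between these same 6 libraries, so every Akk and PBS value below is a description of genes already chosen for differing, and the common direction is not a finding. The largest of the p-values in the authors' deposited table was 0.0498, and the p-values of the 10 genes in it ran from 2.09e-06 for Ly6e to 0.0449 for Ifi27l2a, the gene nearest to that limit.

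The Akk libraries came from wild-type mice that received Akk, a gut bacterium that feeds on mucus, by gavage (400000000 bacteria each day for 7 weeks, from 8 weeks of age); the control libraries came from wild-type mice that received PBS on the same schedule. Both groups ate normal chow, and both were sampled as intestinal epithelium, with 3 libraries numbered 1 to 3 in each group. The labels used here name no mouse strain or sex, and nothing in them says that each library came from its own animal. Judging by its title, the study was about fat uptake and the kinase AMPK in the jejunum; interferon is not mentioned there.

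Interferons are secreted signals that switch on antiviral and antibacterial genes in the cells that receive them. Type I interferon and its epithelial counterpart, interferon lambda, act through a promoter element called the interferon-stimulated response element (ISRE), whereas interferon gamma acts mainly through the gamma-activated site (GAS). In the gut epithelium such genes are known to be expressed at a basal level that depends in part on the microbiota. Ly6 proteins are small surface proteins, many of them held by a lipid anchor, and some of them are themselves induced by interferon.

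The promoters of 4 of the genes are shown. They hold letters resembling these elements, as does the promoter of Ifit2, which is not shown. Promoter sequences of RefSeq (GRCm38.p6), from 250 bases before to 50 bases after the annotated start, were found for 5 of the 10 genes, and Ifit2 had 2 such windows. Ly6a, Ly6e, Ifi27l2a, Tor3a and Tspo had no entry in that table. Capitals mark matches, on either strand, to GAAA followed after 2 bases of any kind by a further GAAA (ISRE-like) or to TTCNNNGAA, which reads the same on both strands (GAS-like). The windows are chr8:71537423-71537722 (minus strand) for Bst2, chr11:48871371-48871670 (minus strand) for Irgm1, chr11:82991781-82992080 (minus strand) for Slfn9 and chr9:92249944-92250243 (plus strand) for Plscr1, each written 5′ to 3′ on the strand of its gene.
Bst2: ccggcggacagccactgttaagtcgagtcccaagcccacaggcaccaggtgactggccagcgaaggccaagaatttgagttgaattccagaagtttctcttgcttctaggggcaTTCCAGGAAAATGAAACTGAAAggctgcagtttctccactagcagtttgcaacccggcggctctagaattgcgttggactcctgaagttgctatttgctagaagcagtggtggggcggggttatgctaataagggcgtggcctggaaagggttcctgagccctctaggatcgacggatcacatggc
Irgm1: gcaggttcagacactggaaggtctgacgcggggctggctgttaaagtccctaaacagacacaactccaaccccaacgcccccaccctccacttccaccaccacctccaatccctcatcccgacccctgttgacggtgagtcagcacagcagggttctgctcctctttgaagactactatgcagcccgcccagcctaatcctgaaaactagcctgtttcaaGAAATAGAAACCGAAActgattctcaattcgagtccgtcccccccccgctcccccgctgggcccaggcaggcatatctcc
Slfn9: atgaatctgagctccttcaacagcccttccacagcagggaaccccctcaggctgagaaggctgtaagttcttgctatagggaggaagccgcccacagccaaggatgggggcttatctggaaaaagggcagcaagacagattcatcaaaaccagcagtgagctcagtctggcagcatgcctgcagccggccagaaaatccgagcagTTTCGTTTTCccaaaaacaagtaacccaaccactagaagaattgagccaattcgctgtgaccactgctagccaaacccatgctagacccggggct
Plscr1: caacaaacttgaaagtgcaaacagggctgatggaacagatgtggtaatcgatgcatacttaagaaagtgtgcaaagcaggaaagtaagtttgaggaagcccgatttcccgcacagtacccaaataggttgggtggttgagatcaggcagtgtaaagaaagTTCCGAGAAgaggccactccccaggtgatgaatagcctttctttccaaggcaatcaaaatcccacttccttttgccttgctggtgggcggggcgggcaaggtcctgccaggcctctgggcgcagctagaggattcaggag

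In Bst2 the capitals cover 2 overlapping ISRE-like matches (bases -130 to -121 and -124 to -115 from the start), and a GAS-like match at -136 to -128 overlaps the first of them. Irgm1 has 2 overlapping ISRE-like matches from -30 to -15, Slfn9 has 1 on the opposite strand at -45 to -36, and Plscr1 has a GAS-like match at -90 to -82. Of the 2 windows of Ifit2, neither held an ISRE-like match and 1 held a GAS-like match at -241. An ISRE-like match was present in 3.44% of all 32851 promoter windows of the same length and a GAS-like match in 8.30%. These matches describe letters and show neither binding nor a response in these mice.

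PBS replicate 2 was unlike the remaining 5 libraries. It was the highest library for all but 18 of the 1040 genes listed as lower, which leaves 1.73% of them. Selection for higher values in PBS favours a PBS library as the highest, so this share partly follows from the selection. The 346 genes listed as higher were not counted. The summed FPKM (fragments scaled to gene length and depth) of 11 listed Paneth cell markers, of 13 in the list, was 174 to 203 in the Akk libraries, and 227, 9112 and 252 in PBS replicates 1, 2 and 3. That of 7 listed stem cell markers, of 14, was 7.95 to 10.3 in Akk against 15.5, 616 and 16.9 in PBS, and that of 29 listed proliferation genes, of 30, was 36.3 to 49.5 in Akk against 81.9, 812 and 65.6 in PBS. Of 17 enterocyte markers 2 were listed, Apoa4 and Apob, both as higher in Akk, and both were lowest in PBS replicate 2. Apoa4, a lipoprotein of fat-absorbing cells, had 3660 to 5057 FPKM in Akk, and 1811, 467 and 3101 in PBS replicates 1, 2 and 3. Apob had 251 to 305 FPKM in Akk, and 165, 91.6 and 229 in PBS replicates 1, 2 and 3. Enterocyte RNA was thus present in every library. No marker was listed of T cells and intraepithelial lymphocytes (0 of 17), B and plasma cells (0 of 10), myeloid cells (0 of 13), stroma (0 of 10) or endothelium (0 of 8), so the table gives no level for these cells. Sequencing depth, as implied by the deposited values, lay between 23614160 and 29441159 fragments.

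The 10 genes were split in PBS replicate 2. For 6 of them, Ly6a, Ly6e, Bst2, Ifi27l2a, Ifit2 and Irgm1, PBS replicate 2 was not the highest library, so they make up 6 of the 18 such genes. For 5 of these 6, all but Ly6e, PBS replicate 2 was the lowest of the 3 PBS libraries, which was the case for 0.962% of the genes listed as lower (10 of 1040). Its ratio to the mean of PBS replicates 1 and 3 was 0.0159 for Ifi27l2a, 0.274 for Ifit2, 0.385 for Ly6a and 0.427 for Bst2. For Irgm1 (0.849) and Ly6e (0.915) PBS replicate 2 was close to the other PBS libraries. For the other 4 PBS replicate 2 was the highest library, as for most of the genes listed as lower. It was at 1.33 times the mean of PBS replicates 1 and 3 for Plscr1, 1.64 times for Tor3a, 1.75 times for Tspo and 18.2 times for Slfn9. Over the 10 genes the median of this ratio was 0.882, and over the 1040 genes it was 5.77. When all 1040 were ordered by this ratio, Ifi27l2a, Ifit2, Ly6a and Bst2 took the 4 lowest places. Irgm1 was at place 8, Ly6e at 14, Plscr1 at 24, Tor3a at 40, Tspo at 51 and Slfn9 at 995. Of the 4 genes highest in PBS replicate 2, only Slfn9 was thus above the median ratio of the 1040. The other 5 genes with PBS replicate 2 lowest within PBS were Fxyd6, Gm10260, Ndrg1, Gm11361 and Ms4a18, named after their values were seen. The summed crypt markers above were also highest in PBS replicate 2, as were Plscr1, Slfn9, Tor3a and Tspo and unlike the remaining 6 genes, and their part in the values of the 10 genes was not tested. The 2 listed enterocyte markers were lowest in PBS replicate 2, and their part was not tested either. In bulk RNA, fewer cells that express a gene and less RNA per cell cannot be told apart.

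**Figure D1:**
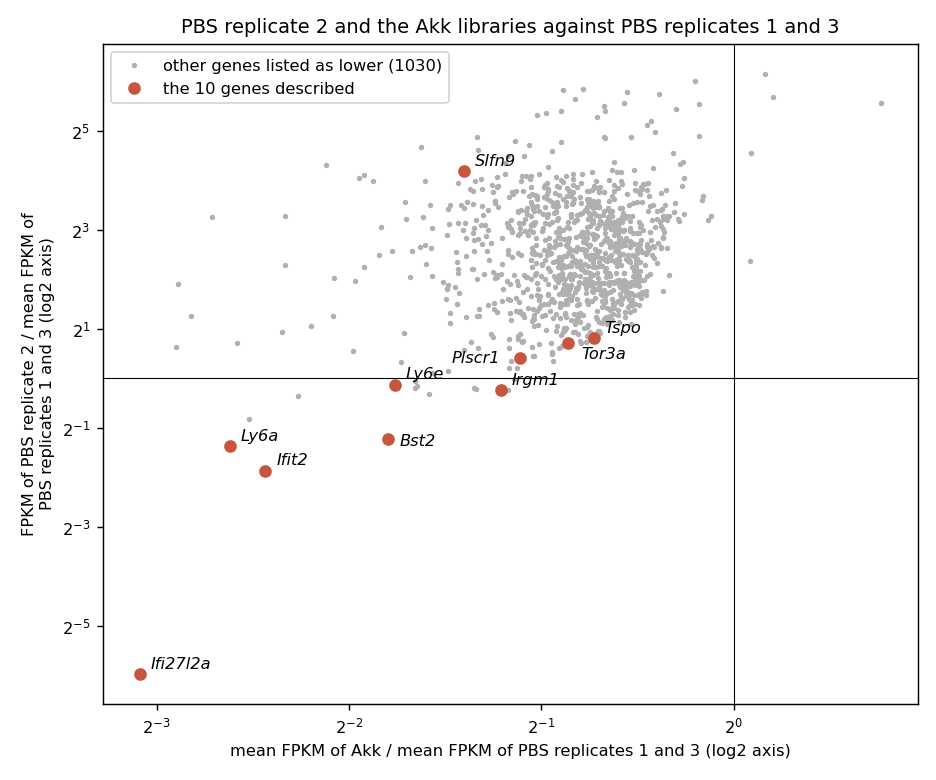
Ratios for the 1040 genes listed as lower in Akk. The horizontal axis is the mean FPKM of the 3 Akk libraries over the mean of PBS replicates 1 and 3, the vertical axis is the FPKM of PBS replicate 2 over that same mean, both axes are log2 scaled, and red points are the 10 genes described. Most grey points lie above the horizontal line (median ratio 5.77), while Ly6a, Bst2, Ifit2 and Ifi27l2a lie well below it, Ifi27l2a lowest at 0.0159.

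Ly6a and Ly6e lie near each other on chromosome 15 (GRCm38), Ly6a at 74994877 to 74998031 on the minus strand and Ly6e at 74955051 to 74959905 on the plus strand. Ly6a encodes Sca-1, a surface protein used in mice to mark blood stem cells and known in the gut from epithelium that is repairing injury. Its FPKM was 5.47, 4.36 and 5.81 in Akk replicates 1, 2 and 3, against 30.5, 12.3 and 33.6 in PBS replicates 1, 2 and 3. The groups did not overlap, and PBS replicate 2 lay between the Akk libraries and the other 2 PBS libraries. The Akk mean was 5.22 ± 0.759 and the PBS mean 25.5 ± 11.5 (SD, n = 3 each), and the log2 fold change fitted to the counts, Akk over PBS, was -2.29 (SE 0.66). Without PBS replicate 2 it was -2.63 (SE 0.20), and the mean of PBS replicates 1 and 3 was 6.15 times the Akk mean, the sixth-ranked ratio of the 1040 genes listed as lower. A gene low in PBS replicate 2 needed a large ratio to be listed, so the selection partly sets this rank. Of 15 genes in a list of repair-associated epithelium 3 were listed, Ly6a, Krt19 and Krt7, all as lower in Akk. Unlike Ly6a, Krt19 and Krt7 were highest in PBS replicate 2, at 2.54 and 4.19 times the mean of PBS replicates 1 and 3 (Ly6a 0.385 times).

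Ly6e encodes a surface protein known to restrict the entry of coronaviruses, and had the highest mean FPKM of the 10 genes in both groups. It had 44.8, 32.6 and 36.9 FPKM in Akk replicates 1, 2 and 3, and 113, 118 and 145 in PBS replicates 1, 2 and 3. All PBS libraries lay close together and far above all Akk libraries, so PBS replicate 2 was like the other 2 PBS libraries for this gene. The means were 38.1 ± 6.22 in Akk and 126 ± 16.95 in PBS (SD, n = 3 each). The log2 fold change was -1.78 (SE 0.42), and -1.82 (SE 0.22) without PBS replicate 2. Of the 35 genes in the list of Ly6 and related proteins these were the only 2 in the table, and both are members of the set chosen here.

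Bst2 encodes tetherin, an interferon-induced protein that holds budding enveloped viruses at the cell surface (chromosome 8, 71534255 to 71537456, minus strand). Its FPKM was 20.7, 17.8 and 18.5 in Akk replicates 1, 2 and 3, against 61.4, 28.2 and 70.5 in PBS replicates 1, 2 and 3. The groups did not overlap, but PBS replicate 2 was closer to the Akk libraries than to its own group. The log2 fold change was -1.49 (SE 0.56) with all libraries and -1.79 (SE 0.19) without PBS replicate 2. Its promoter, shown above, carries both ISRE-like letters and a GAS-like match.

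Ifi27l2a encodes a small membrane protein of a family strongly induced by type I interferon (chromosome 12, 103442167 to 103443680, minus strand). Its FPKM was 4.58, 4.00 and 3.24 in Akk replicates 1, 2 and 3, and 33.1, 0.532 and 33.9 in PBS replicates 1, 2 and 3, from 89, 74 and 56 counts in Akk and 571, 9 and 616 in PBS. PBS replicates 1 and 3 were nearly equal and far above every Akk library, while PBS replicate 2 was below every Akk library, so the groups overlapped. The mean of PBS replicates 1 and 3 was 8.50 times the Akk mean, the first-ranked ratio of the 1040 genes, and 62.9 times the value of PBS replicate 2. As for Ly6a, the selection partly sets this rank. The log2 fold change was -2.50 (SE 1.21) with all libraries and -3.07 (SE 0.23) without PBS replicate 2.

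Ifit2 encodes an interferon-induced protein with tetratricopeptide repeats that restricts viral replication (chromosome 19, 34550694 to 34576419, plus strand). Its FPKM was 1.89, 1.496 and 3.91 in Akk replicates 1, 2 and 3, and 12.3, 3.60 and 14.0 in PBS replicates 1, 2 and 3. PBS replicates 1 and 3 were above all other libraries, and PBS replicate 2 lay inside the Akk range, so the groups overlapped. The log2 fold change was -2.30 (SE 0.98), and -2.71 (SE 0.85) without PBS replicate 2. Counts and FPKM disagreed in 1 library: Akk replicates 1, 2 and 3 had 303, 42 and 544 counts, and the ratio of count to FPKM in Akk replicate 2 was 0.194 of that expected from the other libraries. For the other 9 genes that ratio stayed between 0.8 and 1.2 in every library. The annotation has 2 Ifit2 transcripts, of 3818 and 700 nucleotides, and whether the choice between them entered the deposited values was not tested. Without Akk replicate 2 the log2 fold change from counts was -1.78, and without Akk replicate 3 it was -3.19.

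**Figure D2:**
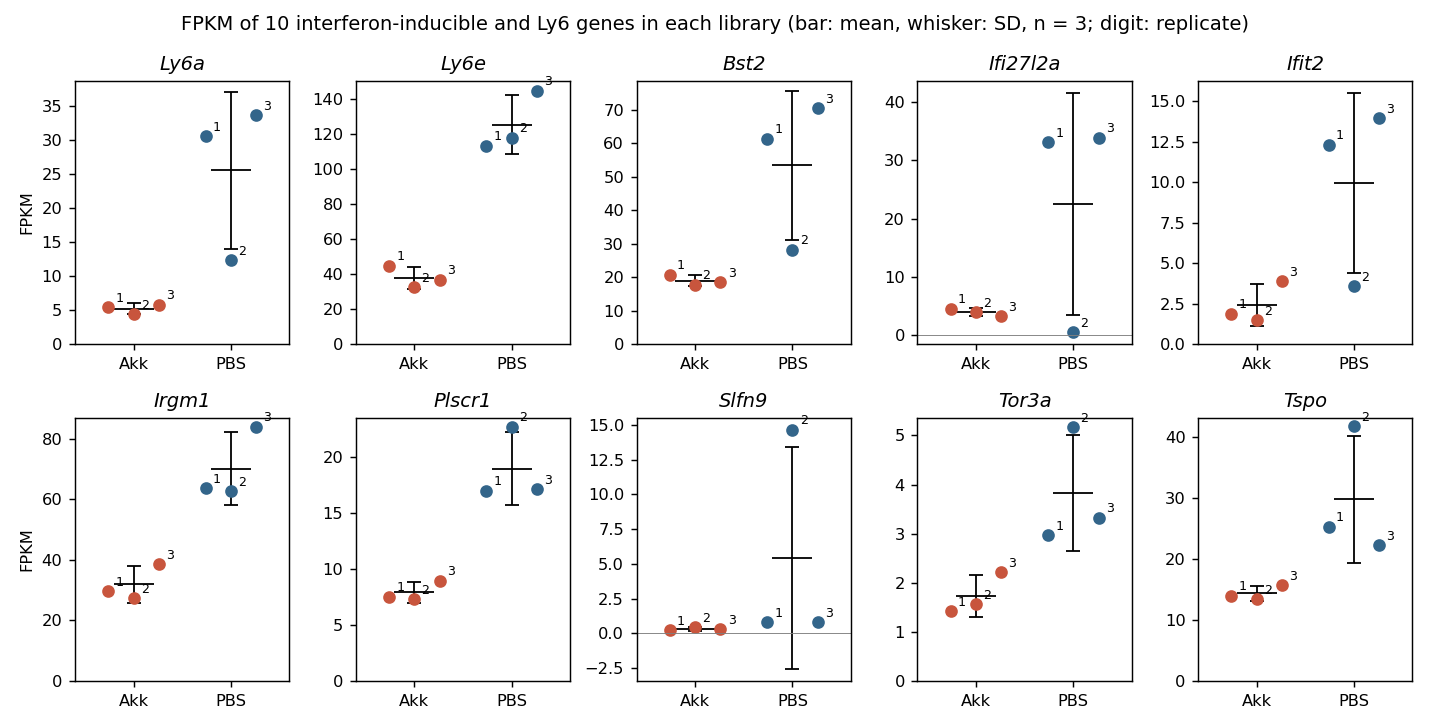
FPKM of each of the 10 genes in the 3 Akk libraries (red, left) and the 3 PBS libraries (blue, right), with the replicate number beside each point, the mean as a bar and the SD as a whisker. Each panel has its own linear axis. PBS replicate 2 is low for Ly6a, Bst2, Ifi27l2a and Ifit2 (0.532 for Ifi27l2a) and high for Plscr1, Slfn9, Tor3a and Tspo (14.7 for Slfn9), and the Akk libraries lie below PBS replicates 1 and 3 in every panel.

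The log2 fold changes of Irgm1 and Plscr1 moved little when PBS replicate 2 was left out. They were close to 0 with TMM or RLE factors taken from the listed genes (TMM -0.185 for Irgm1 and -0.14 for Plscr1, RLE -0.16 and -0.12). With upper-quartile factors from the listed genes they were -0.52 and -0.50. TMM factors also brought the median of all listed genes from -1.85 to -0.21, so this shift is not particular to these genes. Irgm1 encodes an immunity-related GTPase needed in mice for resistance to intracellular bacteria (chromosome 11, 48861968 to 48871683, minus strand). It had 29.6, 27.3 and 38.6 FPKM in Akk replicates 1, 2 and 3, and 63.5, 62.6 and 84.0 in PBS replicates 1, 2 and 3. The log2 fold change was -1.16 (SE 0.42), and -1.22 (SE 0.25) without PBS replicate 2. Plscr1 encodes an interferon-inducible membrane protein known to limit viral infection (chromosome 9, 92249750 to 92272278, plus strand). It had 7.49, 7.26 and 8.95 FPKM in Akk replicates 1, 2 and 3, against 16.98, 22.7 and 17.1 in PBS replicates 1, 2 and 3, a log2 fold change of -1.26 (SE 0.49), or -1.10 (SE 0.19) without PBS replicate 2. For both genes all Akk libraries lay below all PBS libraries, and by edgeR with all libraries neither passed (adjusted p = 0.0861 for each).

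Slfn9 is a Schlafen gene, of a family known for interferon induction and control of cell growth (chromosome 11, 82978390 to 82991830, minus strand). Its FPKM was 0.197, 0.448 and 0.271 in Akk replicates 1, 2 and 3, and 0.813, 14.7 and 0.802 in PBS replicates 1, 2 and 3. PBS replicate 2 was 18.2 times the mean of the other 2 PBS libraries, so the PBS mean of this gene rested on it. The log2 fold change of -3.98 (SE 1.25) became -1.40 (SE 0.36) without that library, and the groups still did not overlap. Slfn9 has close paralogues on the same chromosome, so its reads could have been split among them by the counting.

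Tor3a and Tspo had the smallest log2 fold changes of the 10. Tor3a encodes a torsin ATPase of the endoplasmic reticulum, first described as interferon-responsive (chromosome 1, 156653617 to 156674356, minus strand). It had 1.42, 1.56 and 2.22 FPKM in Akk replicates 1, 2 and 3 and 2.96, 5.17 and 3.33 in PBS replicates 1, 2 and 3. Tspo encodes a protein of the outer mitochondrial membrane that binds cholesterol and porphyrins, and is in none of the interferon lists used here (chromosome 15, 83563592 to 83574203, plus strand). It had 14.0, 13.4 and 15.7 FPKM in Akk replicates 1, 2 and 3, against 25.3, 41.7 and 22.3 in PBS replicates 1, 2 and 3. The groups did not overlap for either gene, and PBS replicate 2 was the highest library for both. Their log2 fold changes were -1.14 (SE 0.64) and -1.05 (SE 0.56), and without PBS replicate 2 -0.86 (SE 0.25) and -0.73 (SE 0.19). Tspo overlaps Mcat on the opposite strand, and without a stated strand setting the reads of the 2 genes cannot be told apart.

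**Figure D3:**
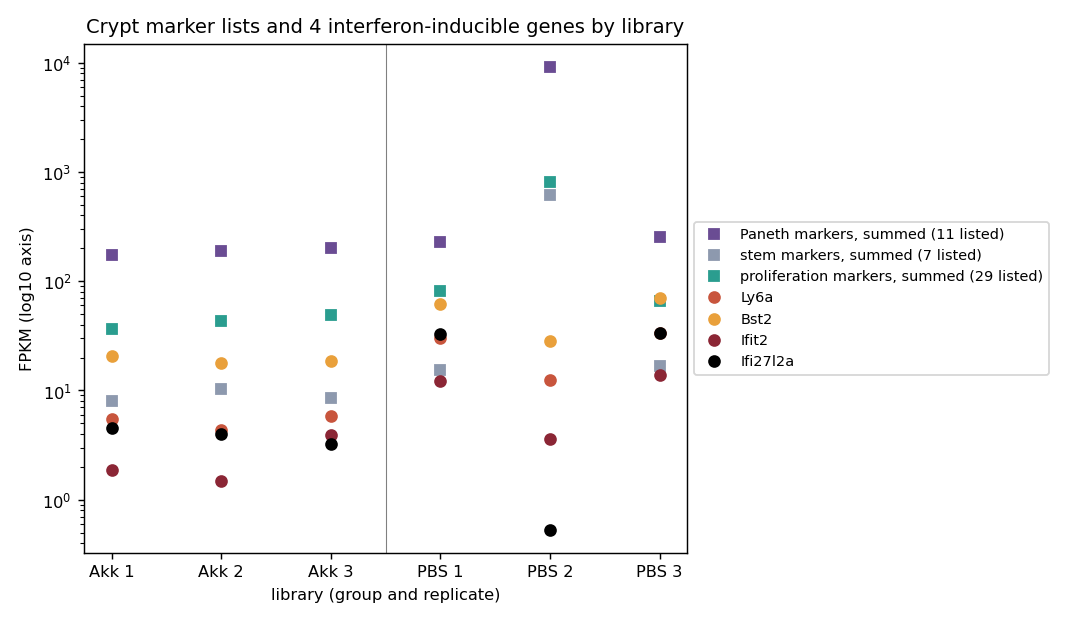
FPKM by library on a log10 axis for 4 of the genes (circles) and the summed FPKM of the listed Paneth, stem cell and proliferation markers (squares), Akk libraries left of the line and PBS libraries right of it. In PBS replicate 2 the marker sums are at their highest (9112 for Paneth markers) and the 4 genes are at their lowest within PBS. Only genes low in that library are plotted, so their contrast with the sums follows from the choice of genes. Plscr1, Slfn9, Tor3a and Tspo, which are not plotted, were highest in PBS replicate 2, like the sums. They were at 1.33 to 18.2 times the mean of PBS replicates 1 and 3 there.

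With all 6 libraries 8 of the 10 genes had every Akk library below every PBS library by FPKM, all but Ifi27l2a and Ifit2, where 86.6% of the 1040 and 65.0% of all 1386 genes did so. Without PBS replicate 2 it was 10 of 10, where 86.8% of the 1040 and 65.2% of all 1386 genes did so. By the quasi-likelihood test of edgeR with Benjamini-Hochberg adjustment over all 1386 genes, 0 of the 10 passed at 0.05, where 0% of all genes did (smallest adjusted p = 0.0861). Before adjustment, 7 of the 10 and 791 of the 1386 had p under 0.05. DESeq2 called 7 of the 10, Slfn9 having no adjusted p, where it called 56.7% of all genes (51.4% as lower). Without PBS replicate 2 edgeR called 8 of the 10, all but Ifit2 (adjusted p = 0.0581) and Tor3a (adjusted p = 0.0536), where it called 19.5% of all genes (17.7% as lower). Without PBS replicate 1 or PBS replicate 3 it called 2 of the 10, Ly6e and Slfn9 each time, where it called 53.0% and 52.8% of all genes. As the selection of the table used this contrast, nothing is read from these shares.

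The log2 fold changes in the authors' deposited table ran from -1.75 for Slfn9 to -0.60 for Tspo, nearer to 0 for each of the 10 genes than those fitted here, which ran from -3.98 to -1.05. The labels do not say how the authors computed theirs. Over the 10 genes the median log2 fold change was -1.64 in the fit to all 6 libraries and -1.60 once PBS replicate 2 was left out, that of the 1040 genes listed as lower was -2.19 and -0.78, and that of all 1386 genes was -1.85 and -0.66. The 10 genes did not move alike: leaving that library out brought Plscr1, Slfn9, Tor3a and Tspo nearer to 0 and took the other 6 further from it. Relative to PBS replicates 1 and 3 alone, the PBS mean was a median of 3.02 times the Akk mean over the 10 genes and 1.73 times over the 1040 genes listed as lower. A gene low in PBS replicate 2 had to differ more in PBS replicates 1 and 3 to be listed as lower. A gene high in that library could be listed with a small ratio. The medians without PBS replicate 2 are thus partly set by the selection, and nothing is read from their difference. With TMM or RLE scaling factors taken from the table itself, the median of all 1386 genes was -0.21 or -0.15 and that of the 10 genes -0.73 or -0.71, and with either scaling Tor3a and Tspo turned positive (0.050 and 0.17 with TMM). With upper-quartile factors from the table both stayed negative (-0.31 and -0.20).

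**Figure D4:**
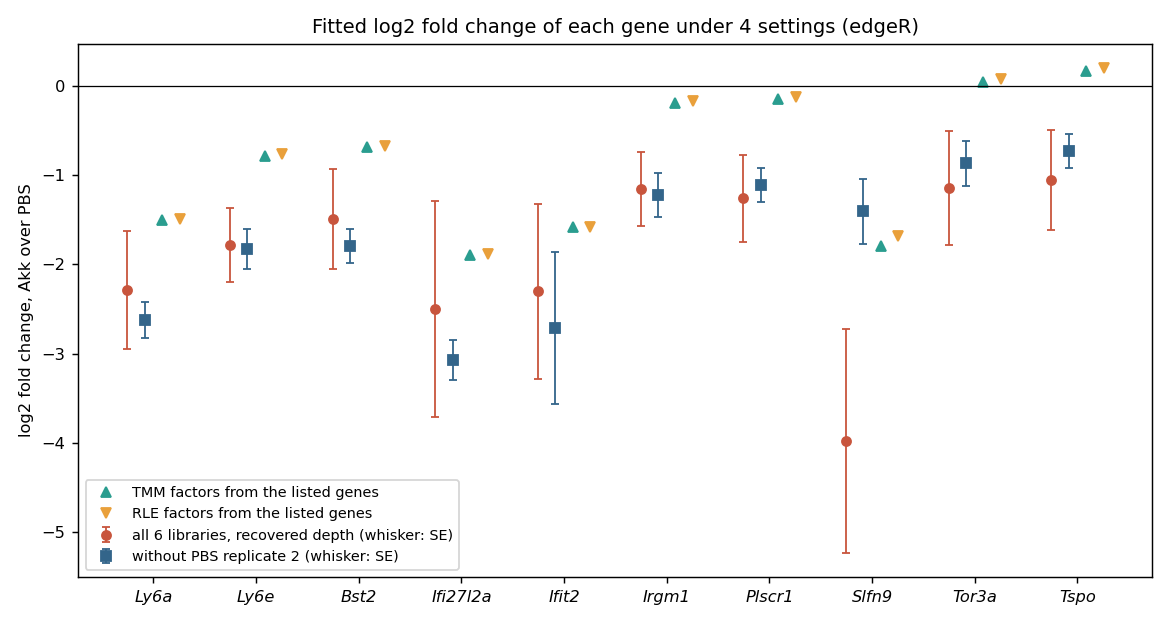
Log2 fold changes fitted by edgeR, Akk over PBS, for each gene with all 6 libraries, without PBS replicate 2 (whiskers are SE for these 2), and with TMM or RLE factors from the listed genes. Slfn9 moves from -3.98 to -1.40 when PBS replicate 2 is left out, Tor3a and Tspo lie just above 0 with TMM and RLE factors, and the other 8 genes lie below 0 in all 4 settings.

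Few other genes of the interferon lists used here were in the table, and these lists do not hold every interferon-inducible gene. Of 50 genes in a list of type I interferon-inducible genes 8 were listed, all as lower in Akk, and 6 of these belong to the set described here. The other 2, the membrane proteins Ifitm3 and Ifitm2 that block virus entry, had their highest value in PBS replicate 2. Ifitm3 had 4.39, 5.38 and 2.99 FPKM in Akk replicates 1, 2 and 3, and 28.0, 118 and 35.0 in PBS replicates 1, 2 and 3. Of 23 interferon gamma-inducible GTPases and chemokines 3 were listed, Irgm1 and the near-identical Tgtp1 and Tgtp2, whose reads the counting could have split. Tgtp2 had 4.02, 3.16 and 4.38 FPKM in Akk replicates 1, 2 and 3, and 6.29, 21.7 and 9.88 in PBS replicates 1, 2 and 3, with PBS replicate 2 the highest, unlike Irgm1. By edgeR 0 of the 8 and 0 of the 3 passed with all libraries, where 0% of all genes did, and 6 and 3 did without PBS replicate 2, where 19.5% of all genes did (17.7% as lower), on genes selected on these samples. None of 23 genes of MHC class I presentation, 6 of MHC class II presentation or 24 interferon receptors, kinases and transcription factors was listed. These genes missed the thresholds of the authors or were not measured.

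The genes whose FPKM followed the mean of the 10 most closely over all 6 libraries were Atp10a, Susd1, Gstp3, Gm11361 and Nqo1. Their Pearson correlation of log2(FPKM + 0.1) was between 0.956 and 0.988. Atp10a had only 0.056 to 0.25 FPKM and Susd1 0.12 to 0.55, values near the added 0.1. The mean joins genes that were low and genes that were high in PBS replicate 2. Over the 5 libraries other than PBS replicate 2 the closest genes were Spred1, Iqsec1, Nup188, Psen2 and Hnrnpa3, at 0.998 to 0.999. All points come from the same 2 groups of libraries, so these values describe likeness only.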

How the data were processed

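RNA of intestinal epithelial cells was sequenced from 3 Akk and 3 PBS libraries. Total RNA was extracted with Trizol and made into Illumina mRNA libraries, per the labels' protocols, and the build was mm10, per the submitters' processing notes. Which aligner, counting program, strand setting and test were used is not stated in those sources. Per the file headers, the authors deposited read counts (whole numbers) and FPKM by library, and for each gene a p-value and the log2 of the Akk to PBS fold. The table holds only genes selected on these libraries (p-values up to 0.0498), so column totals are not depth. Of 1386 genes, 1322 had Ensembl identifiers, all found in GENCODE M21 (GRCm38), and 2 lines without values were left out.

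Library depth was estimated from count divided by FPKM over 560 genes with at least 200 counts in every library, with exon lengths of 548. Counts were fitted with edgeR 4.0.16 (R 4.3.3; filterByExpr, which kept all 10 genes; quasi-likelihood test; no replicate term) with that depth as library size, adjusted over all genes; the script was tested on simulated data. The simulated data had the spread of the fit without PBS replicate 2 and no library that stood apart. They therefore do not check the fit to all 6 libraries under such a library. Fold changes of edgeR are on counts, and values by library are FPKM unless stated. The SE of an edgeR fold change is its absolute log2 value divided by the square root of the quasi-likelihood F statistic. Alternatives used DESeq2 1.42.0, limma 3.58.1, other factors and filters, and each library left out. The p-values measure the spread between these libraries, which may be technical. The 10 genes, the lists and the rule for naming other genes (listed interferon, Ly6 and marker genes by mean FPKM, and the 5 closest patterns) were chosen with earlier results of these data known. Protein sequences were not used here.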

Additional observations from a re-analysis of the deposited data

How the results depend on the processing

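The count of 0 genes called by edgeR over the table became 6 with the replicate block, 786 with DESeq2, 2 with limma-voom, 1 with limma on log2(FPKM + 0.1) and 0 to 734 when each library was left out in turn (734, 270 and 732 when it was PBS replicate 1, 2 or 3). The count of 0 of the 10 genes became 7 with DESeq2 and 0 to 8 with each library left out (2, 8 and 2 when it was PBS replicate 1, 2 or 3), and stayed 0 with the replicate block. The median log2 fold change of the 10 genes was -1.64, and moved to -0.73 with TMM, -0.71 with RLE and -1.08 with upper-quartile factors from the listed genes. With limma it was -1.31 on log2(FPKM + 0.1), -1.33 on log2(FPKM + 1) and -1.32 with limma-voom. It ran from -1.72 to -1.48 with each library left out. The factors from the listed genes (4.00 with TMM and 4.39 with RLE for PBS replicate 2) are computed from selected genes that are mostly lower. Tor3a turned to 0.050 with TMM and 0.081 with RLE factors, and Tspo to 0.17 and 0.20. Of 160 values of single genes under 16 alternatives, these 4 changed sign and 19 passed the threshold that none passed by edgeR with all libraries, 7 of them with DESeq2 on the same 6 libraries. Genes without overlap numbered 8 to 10 with each library left out. Neither filter on low counts took out any gene, so neither bears on stability. Same-numbered libraries did not pair (correlations of their deviations 0.24, -0.08 and -0.30; 1 of 6 libraries correlated best with its own number). The deposited table limits all of this to selected genes, and 3 libraries in a group limit the precision.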
